A study of Mus musculus with 4 samples.

Results

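St6gal1 and the 6 St3gal genes were followed in mammary tumors of mice labelled St6gal1 null and of wild-type littermates. These genes encode the enzyme that caps N-glycans with sialic acid in the alpha2-6 linkage and the family that adds it in the alpha2-3 linkage. Members were all probe sets of the array whose annotated gene symbol was exactly one of these 7 names. This gave 7 genes of the 18193 named on the array and 17 probe sets of 45037, with 2 for St6gal1, 2 each for St3gal1, St3gal3 and St3gal5, 3 for St3gal2, 1 for St3gal4 and 5 for St3gal6. The arrays were 4 Affymetrix Mouse Genome 430 2.0 arrays, each with RNA from a pool of 3 tumors of 3 animals. Of these pools 2 came from mice labelled St6gal1-/-, called null pools by that label, and 2 from wild-type mice, and all animals were female C57BL/6 mice carrying PyV-mT, the polyoma virus middle T oncogene, aged 110 days and sampled 14 days after tumor onset. The submitters compared 1 pool labelled null with 1 wild-type pool in each of 2 sets. The promoter of the transgene and the exons missing from the null allele are not given in the sources used here.

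Sialic acid is transferred from CMP-sialic acid to the ends of glycans in the Golgi. ST6Gal-I, the product of St6gal1, acts on the terminal galactose of N-glycan antennae. The products of St3gal3, St3gal4 and St3gal6 can cap the same kind of galactose in the alpha2-3 linkage, so they compete for its acceptor. St3gal1 and St3gal2 act mainly on the core of O-glycans and on gangliosides, and St3gal5 makes the ganglioside GM3 from lactosylceramide. The question asked of these genes was whether the transcript of an alpha2-3 enzyme was higher where the alpha2-6 enzyme was labelled as missing.

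Among the 9 members bright enough to be tested, 1 rose: the St3gal5 probe set 1460241_a_at was 2.04-fold higher in the pools labelled null. The brighter St3gal5 probe set, 1449198_a_at, was not called, at a log2 ratio of 0.06 (limma adjusted p = 0.887). The mean of both St3gal5 probe sets was not called either (limma adjusted p = 0.0690). None of the tested probe sets of St3gal3, St3gal4 and St3gal6, whose enzymes share the acceptor of ST6Gal-I, passed the threshold. No member fell past it. Of the 9 only St3gal5 1460241_a_at and St3gal2 1421892_at reached an unadjusted p under 0.05 (limma). Over all 22519 tested probe sets 4645 did. The share of members that rose, 1 of 9, stands beside 4.05% of the 22519 probe sets tested that rose and 3.25% that fell (limma, Benjamini-Hochberg adjusted p below 0.05). In both directions together 7.3% were called. The median log2 ratio was 0.19 over the 9 tested members and -0.03 over all tested probe sets.

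Members were tested where their mean intensity reached the median of all probe sets, 591, and the 8 dimmer members are given by value. Log2 ratios are differences of log2(intensity + 44), null over wild type, which understates the change of dim probe sets. Intensities are MAS5 signals on a linear scale, scaled so that all arrays share a trimmed mean of 2500.01. Probe sets for Y-linked genes, which these female animals lack, read up to 585, and signals at or below this are not told from unspecific signal. Median intensities were 588 to 619. The luminal keratin Krt8 read 101213 to 150715 and the epithelial adhesion gene Epcam 21835 to 52347, so defining markers of mammary epithelium were present on all 4 arrays. The 3'/5' ratio of Gapdh, which rises with RNA degradation, was 0.873 (labelled null) against 0.869 (wild type) in set 1, and 2.13 against 1.57 in set 2. Fewer cells of a type and less RNA per cell cannot be told apart in such bulk samples.

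**Figure D1:**
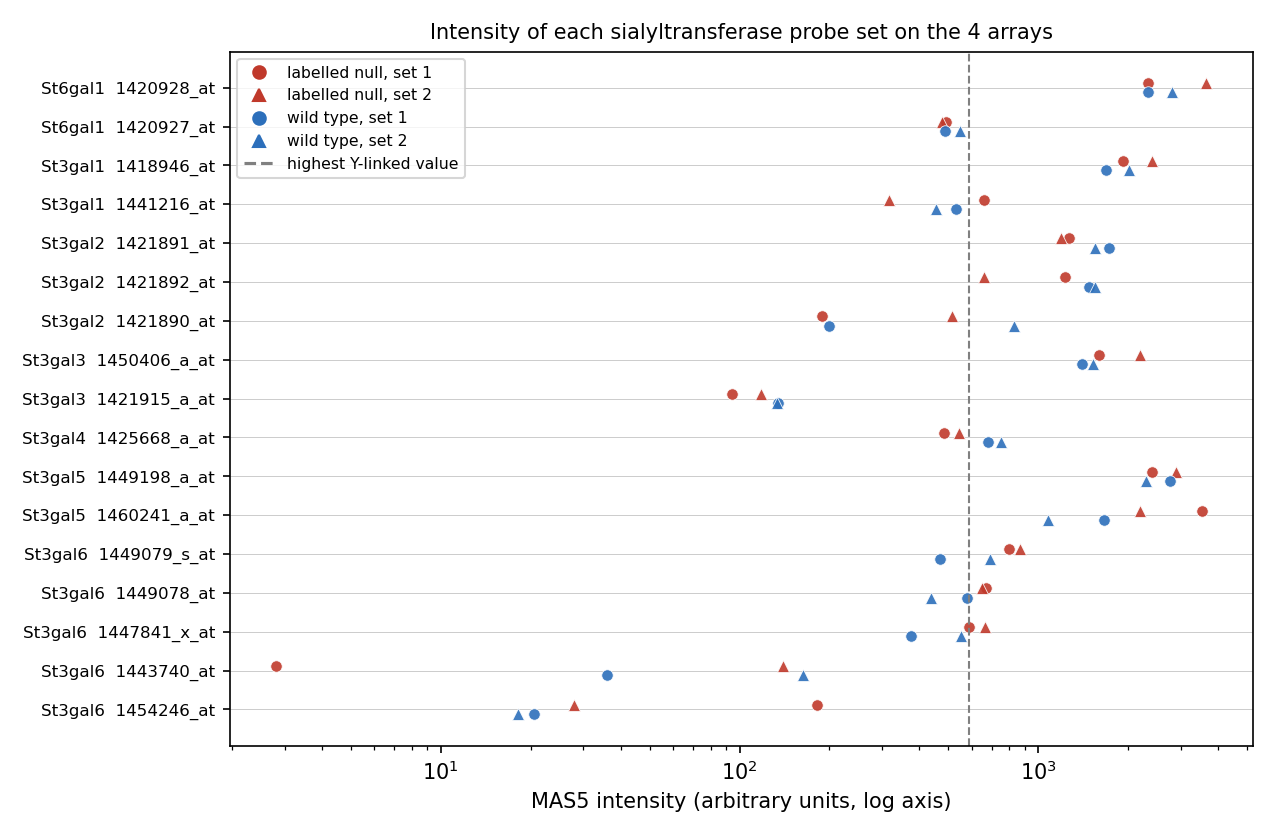
MAS5 intensity (x axis, log scale) of the 17 member probe sets (y axis) on the 4 arrays, red for pools labelled null, blue for wild type, circles for set 1 and triangles for set 2. The dashed line is the highest Y-linked value, 585. The 2 red points of St3gal5 1460241_a_at lie at 3518 and 2189 and its blue points at 1663 and 1080.

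St6gal1, the gene named as targeted, was not lower on the arrays labelled null. Its brighter probe set, 1420928_at, read 2337 (labelled null) against 2330 (wild type) in set 1. The set 2 pair read 3642 against 2796. The lowest value was thus on a wild-type array and the highest on an array labelled null, with the set 1 values almost equal. The log2 ratio was 0.19 ± 0.16 (limma SE, n = 2 pools per genotype, adjusted p = 0.554), with a 95% interval from -0.15 to 0.53. In fold terms the interval ran from 0.904 to 1.44. The sequence that this probe set detects is not in the files used here, so whether it lies in the part removed by the allele is not known, and a probe set outside that part checks nothing. Directions below rest on the labels.

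The dimmer St6gal1 probe set, 1420927_at, read 492 and 475 in the null pools of sets 1 and 2 and 486 and 548 in the wild-type pools. All 4 values lie within the unspecific level, so whether it could show a loss is not known. Both probe sets carry the same representative accession in the annotation. Between the sets the brighter probe set was 0.44 higher on the log2 scale in set 2 (limma adjusted p = 0.0543) and did not pass. The 5 genes whose mean-centred log2 values lay nearest to those of the brighter St6gal1 probe set over the 4 arrays were Mtrex, Aebp1, Lrrk1, Pafah1b1 and Snx9, at Euclidean distances of 0.030 to 0.044.

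RefSeq (GRCm38.p6) gives St6gal1 3 start sites, and the sequences just before them are shown because St6gal1 is known to be transcribed from several promoters. Which of these starts the probe sets can report is not in the files used here. Each window holds the 250 bases before a start, on the plus strand of chromosome 16, 5' to 3'. Capitals mark CCAAT, which reads ATTGG where it lies on the other strand. The windows lie at chr16:23224490-23224739, chr16:23225771-23226020 and chr16:23290220-23290469.
St6gal1 start 1: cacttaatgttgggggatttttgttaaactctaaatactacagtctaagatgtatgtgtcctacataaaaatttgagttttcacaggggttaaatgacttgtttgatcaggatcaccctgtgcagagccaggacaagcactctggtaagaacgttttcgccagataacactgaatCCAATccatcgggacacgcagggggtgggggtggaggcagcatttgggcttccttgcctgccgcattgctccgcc
St6gal1 start 2: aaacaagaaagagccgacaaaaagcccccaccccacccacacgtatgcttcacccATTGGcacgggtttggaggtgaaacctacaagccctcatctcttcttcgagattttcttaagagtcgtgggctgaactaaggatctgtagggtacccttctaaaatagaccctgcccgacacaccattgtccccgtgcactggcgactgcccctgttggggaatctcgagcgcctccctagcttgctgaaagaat
St6gal1 start 3: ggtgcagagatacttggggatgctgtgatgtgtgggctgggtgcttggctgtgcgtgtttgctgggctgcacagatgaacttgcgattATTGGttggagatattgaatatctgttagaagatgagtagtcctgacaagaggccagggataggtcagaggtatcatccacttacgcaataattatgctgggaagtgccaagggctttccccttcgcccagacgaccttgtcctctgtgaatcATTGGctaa
The 3 windows had a GC content of 47.2%, 52.8% and 49.6%, near the median of 52.4% over all 32851 windows of this length in the table. They held 1, 1 and 2 matches to CCAAT, which 33.85% of all windows hold. None of them held TATAAA, found in 12.37% of all windows, or GGGCGG, the GC box, found in 32.74% (both strands searched for each motif).

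Of the 3 genes whose enzymes share the acceptor of ST6Gal-I, St3gal3 and St3gal6 read higher and St3gal4 lower in the pools labelled null, and none passed. St3gal3 makes alpha2-3 linkages on the galactose of type 1 and type 2 chains of glycoproteins. Its brighter probe set, 1450406_a_at, read 1597 and 2190 in the null pools of sets 1 and 2, against 1404 and 1519 in the wild-type pools. The null pool was the higher in each set. The log2 ratio was 0.35 ± 0.20 (limma SE, adjusted p = 0.369), with an interval from -0.08 to 0.78, so a rise of up to 1.72-fold is within it. The other St3gal3 probe set, 1421915_a_at, read 94.6 and 118 in the null pools against 135 and 134 in wild type, all within the unspecific level.

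St3gal4, which acts on type 2 chains and contributes to selectin ligands, has a single probe set, 1425668_a_at. It read 483 and 542 in the null pools of sets 1 and 2 and 677 and 753 in the wild-type pools. Both wild-type arrays lay above the unspecific level and both arrays labelled null within it. The log2 ratio was -0.45 in set 1 and -0.44 in set 2. Over both sets it was -0.45 ± 0.36 (limma SE, adjusted p = 0.539). Its interval ran from -1.22 to 0.32, so a rise of up to 1.25-fold is within it. The model sets its error partly by intensity, and this signal was dim.

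St3gal6, which also caps type 2 chains, has 5 probe sets, of which 1 was tested. That probe set, 1449079_s_at, read 796 and 869 in the null pools of sets 1 and 2 and 468 and 691 in the wild-type pools. The null pool was the higher in each set, and 1 wild-type value was within the unspecific level. The log2 ratio was 0.51 ± 0.34 (limma SE, adjusted p = 0.437), with an interval from -0.21 to 1.23, which leaves room for a rise of 2.35-fold as well as for a fall. The suffix s marks probe sets that can also detect other transcripts, and x those with probes that may cross-hybridise.

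The dimmer St3gal6 probe sets were split between weak signals that leaned the same way and signals near the floor. Probe set 1449078_at read 669 and 647 in the null pools against 578 and 436 in wild type. Probe set 1447841_x_at read 585 and 662 against 374 and 550. For these and the tested probe set, the ratio was above 0 in both sets, from 0.20 to 0.72 in single sets. Probe sets 1443740_at and 1454246_at read at most 182 on every array and gave ratios from -0.77 to 1.81, values that rest on unspecific signal.

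The 2 genes of O-glycan and ganglioside sialylation read in different directions, and neither passed. St3gal1 adds sialic acid to the core 1 O-glycan. Its brighter probe set, 1418946_at, read 1919 and 2393 in the null pools of sets 1 and 2 and 1684 and 2016 in the wild-type pools. The null pool was the higher in each set, though the groups overlapped across sets. The log2 ratio was 0.21 ± 0.18 (limma SE, adjusted p = 0.555), with an interval from -0.17 to 0.59. Its other probe set, 1441216_at, read 656 and 316 in the null pools against 529 and 453 in wild type, and only the first of these values lay above the unspecific level.

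St3gal2, which acts on core 1 O-glycans and on gangliosides, read lower in the pools labelled null on each of its 3 probe sets and in both sets, and none of them passed. Probe set 1421891_at read 1270 and 1194 in the null pools of sets 1 and 2 and 1720 and 1551 in the wild-type pools. Its log2 ratio was -0.40 ± 0.21 (limma SE, adjusted p = 0.331). Probe set 1421892_at read 1224 and 657 in the null pools against 1479 and 1554 in wild type. Its ratio was -0.73 ± 0.27 (limma SE, adjusted p = 0.134), with an interval from -1.31 to -0.15 that was not corrected for the number of probe sets tested. This difference lay mostly in set 2, where the ratio was -1.19 against -0.26 in set 1, and set 2 is the one with the unequal Gapdh ratios, whose part in it was not tested. The dimmest probe set, 1421890_at, read 189 and 515 in the null pools against 200 and 828 in wild type. Only the last of these values lay above the unspecific level, so its direction rests mostly on unspecific signal. All 3 probe sets share 1 representative accession, so they are not independent measurements.

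St3gal5, the GM3 synthase gene, held the member that rose, and its other probe set did not follow. Probe set 1460241_a_at read 3518 and 2189 in the null pools of sets 1 and 2 and 1663 and 1080 in the wild-type pools. The log2 ratio was 1.06 in set 1 and 0.99 in set 2. Over both sets it was 1.03 ± 0.18 (limma SE, n = 2 pools per genotype, adjusted p = 0.00246), or 2.04-fold with a 95% interval from 1.56 to 2.66. Beside these stand the 3'/5' ratios of the arrays. In set 1 they were 0.873 (labelled null) against 0.869 (wild type) for Gapdh and 1.53 against 1.63 for beta-actin, and in set 2 they were 2.13 against 1.57 and 2.12 against 1.96. Their part in the rise was not tested. It was the only tested member at least 1.5-fold changed the same way in both sets, a rule that 4.35% of tested probe sets met, 2.67% upward and 1.68% downward. Without the set term the adjusted p was 0.696, and without the intensity trend it was 0.140. With any 1 of the 4 arrays left out, which needs the fit without the set term, the log2 ratio was 0.69 to 1.36 and was not called.

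Probe set 1449198_a_at of the same gene read 2400 and 2879 in the null pools of sets 1 and 2 and 2766 and 2285 in the wild-type pools. The groups overlapped and the ratio was -0.20 in set 1 and 0.33 in set 2. Over both sets it was 0.06 ± 0.17 (limma SE, adjusted p = 0.887), with an interval from -0.30 to 0.43 that lies below the whole interval of the other probe set, 0.64 to 1.41. Within a set the 2 log2 ratios differed by 1.26 in set 1 and by 0.66 in set 2. The mean of both probe sets had a log2 ratio of 0.54 ± 0.17 (limma adjusted p = 0.0690) and did not pass. The annotation gives both probe sets the same representative accession, and the suffix a marks probe sets that detect several transcripts of 1 gene. Which transcripts each of them detects is not in the files used here.

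Between the sets, 1460241_a_at was also the only member that passed. It fell by 0.64 on the log2 scale from set 1 to set 2 (limma adjusted p = 0.0196), while 1449198_a_at differed by -0.01. For this comparison 23.6% of all tested probe sets were called in either direction, 11.1% higher and 12.5% lower in set 2.

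**Figure D2:**
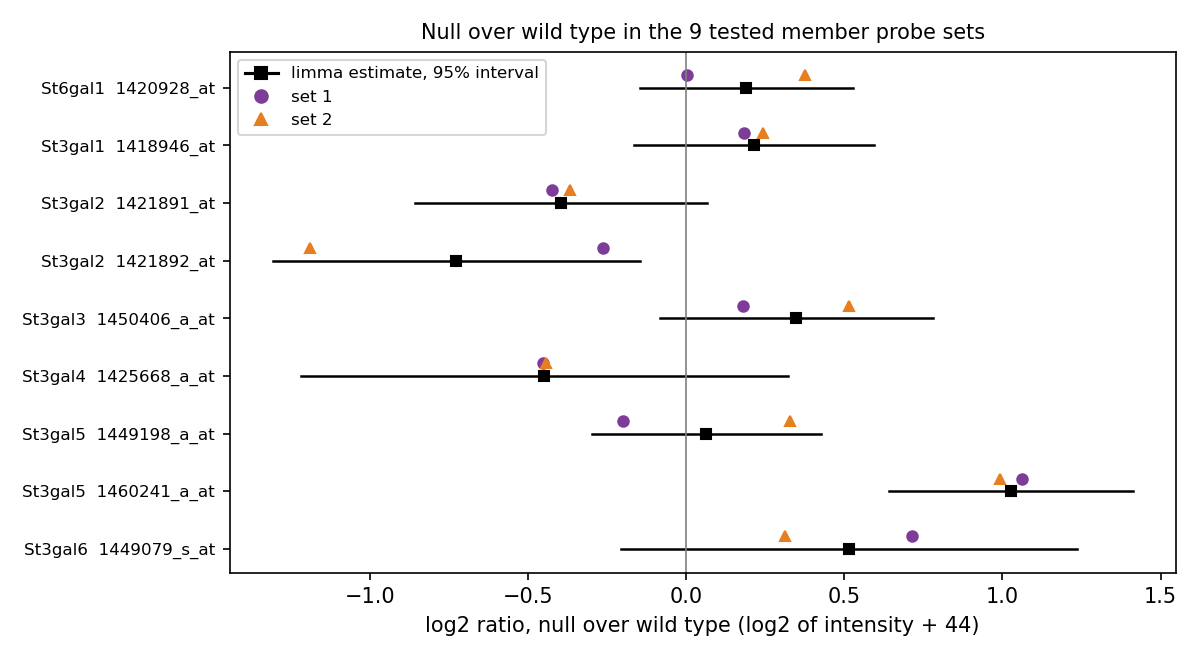
Log2 ratio of pools labelled null over wild type (x axis) for the 9 tested member probe sets (y axis), as the limma estimate with its 95% interval (black) and in set 1 (circles) and set 2 (triangles). St3gal5 1460241_a_at lies at 1.06 and 0.99 in the 2 sets with an interval from 0.64 to 1.41, while the intervals of the others, except St3gal2 1421892_at, include 0.

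The sequence before the St3gal5 start is shown beside those of St6gal1, since St3gal5 held the member that rose. It is the 250 bases at chr6:72097358-72097607 (GRCm38.p6, plus strand, from RefSeq), with capitals for GGGCGG, which reads CCGCCC on the other strand, and for CCAAT, which reads ATTGG there.
St3gal5 start 1: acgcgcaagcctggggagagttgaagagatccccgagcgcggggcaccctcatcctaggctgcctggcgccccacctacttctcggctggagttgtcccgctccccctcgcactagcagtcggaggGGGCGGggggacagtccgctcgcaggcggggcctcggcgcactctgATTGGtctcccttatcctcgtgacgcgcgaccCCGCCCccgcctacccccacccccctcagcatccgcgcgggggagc
Its GC content was 71.6%, at percentile 93.1 of all windows, and it held 25 CpG dinucleotides against a median of 6. It held 2 matches to GGGCGG and 1 to CCAAT and none to TATAAA. Of the 7 member genes 5 had windows in the table. The windows of St3gal3 and St3gal4 were similarly rich in GC, at 68.4% and 72.8%, with 2 and 3 matches to GGGCGG, while the 2 windows of St3gal6 had 34.8% and 64.4%. These are counts of letters and do not show which start is used in these tumors.

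**Figure D3:**
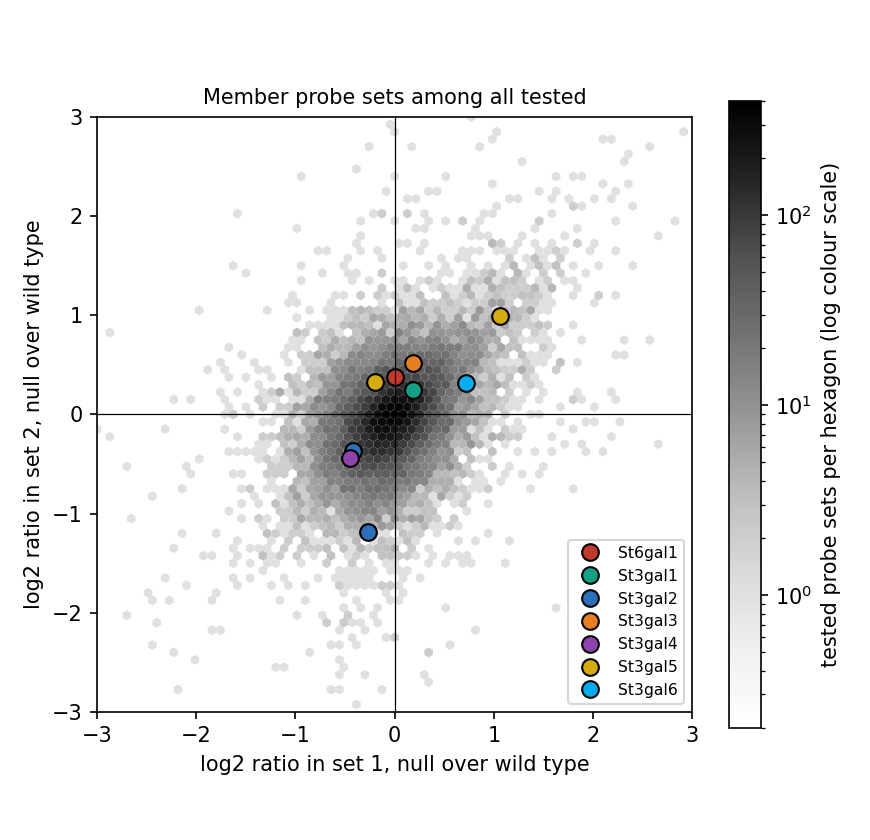
Log2 ratio of null over wild type in set 1 (x axis) and in set 2 (y axis), with grey hexagons for the 22519 tested probe sets (23 of them lie outside the axes) and coloured points for the 9 tested members. The St3gal5 point at 1.06 and 0.99 lies to the upper right of the densest grey, and the lowest member is St3gal2 1421892_at at -0.26 and -1.19.

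Over the 9 tested members the sets agreed in direction for 8, with 5 higher and 3 lower in both sets. Of all tested probe sets 63.3% had the same direction in both sets. The exception was St3gal5 1449198_a_at. The 2 sets share no array, but each genotype is represented by 1 pool per set, so the residual spread rests on 1 degree of freedom and on information borrowed across probe sets.

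Tumors labelled null also differed from wild type in cell markers. All 10 fibroblast markers were called higher, with summed intensities of 402569 to 464836 in the null pools against 194089 to 213234 in wild type. Of 5 adipocyte markers tested 4 rose, and the sum of the 6 on the array was 54438 to 61783 against 22557 to 25913. Of 6 skeletal muscle markers tested 3 rose, with sums of 10582 to 11691 against 6944 to 7301, and of 5 endothelial markers 1 rose, with sums of 7947 to 8228 against 5241 to 5568. Of 6 basal epithelial markers 3 fell, with sums of 105417 to 123183 against 136329 to 148624. Most of this sum was Acta2, which was not called (limma adjusted p = 0.282). Acta2 read 72917 and 92012 in the null pools of sets 1 and 2 against 86649 and 99265 in wild type. Of 5 luminal markers 1 rose, with sums of 401271 to 408058 against 340214 to 374700. Beside these counts, and those of leukocyte markers below, stand 4.05% of all tested probe sets that rose and 3.25% that fell. A single call in a list, as for the endothelial and luminal markers, is not read as a shift of that cell type. No marker was listed at 0. The part of these marker differences in the St3gal5 rise was not tested.

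Leukocyte markers were also read, since B cells are known for high St6gal1 and Cd22 binds its product. The brightest Cd22 probe set read 823 and 426 in the null pools of sets 1 and 2 against 520 and 1224 in wild type. Its log2 ratio was 0.62 in set 1 and -1.43 in set 2, and it was not called (limma adjusted p = 0.662). The defining B cell markers Cd79a and Ms4a1 read at most 271 and 321, within the unspecific level on all 4 arrays. Another, Cd79b, read 582 and 760 in the null pools of sets 1 and 2 against 254 and 508 in wild type, so 1 array labelled null lay above that level, and it was too dim to be tested. Of the 3 B and plasma cell markers tested Ighm rose and Jchain and Sdc1 fell, with Sdc1 read on 1 probe set. Its log2 ratio there was -0.33 (limma adjusted p = 0.0329). Among the other tested Sdc1 probe sets, ratios of 0.07 (limma adjusted p = 0.731) and -0.10 (0.698) were not called. The sum of the 6 markers on the array was 20249 to 24466 in the null pools against 24128 to 27185 in wild type. Most of it was Sdc1, at 14672.5 and 17530.2 in the null pools of sets 1 and 2 against 19489.8 and 20886 in wild type. With Cd79a and Ms4a1 within the unspecific level, this sum is not read as B or plasma cell content. Of 4 macrophage markers tested 1 rose, with sums of 47013 to 57672 against 41993 to 47252. The 1 T cell marker tested did not pass, and the sum of 5 was 2404 to 2623 against 1839 to 1943.

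The genes around these enzymes were counted from lists of the sialylation pathway, with the brightest probe set for each gene. Of 8 genes of sialic acid supply 1 rose and 0 fell, beside 4.05% and 3.25% of all tested probe sets, with a median log2 ratio of 0.06. This was Gne, whose enzyme starts sialic acid synthesis, at 0.48 ± 0.09 (limma SE, adjusted p = 0.00493), with 11661 and 12448 in the null pools of sets 1 and 2 against 8187 and 9115 in the wild-type pools. Its second tested probe set, 1455583_at, had a log2 ratio of 1.15 ± 0.15. Of 7 other sialyltransferases tested limma called 0 (2 at an unadjusted p under 0.05, median -0.09). That unadjusted threshold was reached by 4645 of all 22519 tested probe sets (limma). Of 8 genes that make the galactose acceptor or compete for it 0 were called on the brightest probe set (3 at an unadjusted p under 0.05 by limma, median -0.01). In the latter list B4galt6, which takes part in making lactosylceramide, the substrate of the St3gal5 enzyme, had 4 tested probe sets, of which 1 passed. That one, 1460329_at, fell by 0.48 on the log2 scale (limma adjusted p = 0.0235). The other 3 did not pass, at -0.37 for the brightest, 1435758_at (limma adjusted p = 0.0652), -0.41 for 1450913_at (0.0840) and -0.05 for 1423228_at (0.918). Probe set 1460329_at read 3239 and 4697 in the null against 4736 and 6268 in the wild-type pools, lower in both sets. B4galt5, of the same list, went the other way on its tested probe set, 1433617_s_at, at 0.42 (limma adjusted p = 0.424), and did not pass. It read 936 and 1587 in the null pools of sets 1 and 2 against 839 and 969 in wild type. The only tested sialidase, Neu1, was at -0.16, and of 2 tested lectins that bind sialylated glycans limma called 0 (0 at an unadjusted p under 0.05). St6gal2, which encodes the other alpha2-6 enzyme for galactose, read at most 125 on any array and was within the unspecific level.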

How the data were processed

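Per the submitters' processing notes the deposited intensity values were made by the authors with MAS5 (version not given). They were used as deposited, as log2(intensity + 44), with 44 the 10th percentile of all values. Of 45101 probe sets, 64 controls were left out, and 34945 had 1 gene symbol in the platform annotation, 932 several and 9160 none.

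The 22519 probe sets whose mean reached 591, the median, were fitted with limma 3.58.1 (lmFit and eBayes with an intensity trend, R 4.3.3), with terms for genotype and for set, since the design text pairs the pools, and p-values were adjusted over all of them by Benjamini-Hochberg (threshold 0.05). Pools of one set deviated from their genotype means together (correlation 0.605, which 2 pairs share by construction). There was 1 residual degree of freedom, and eBayes added 13.0. Intervals are 95% limma intervals. With 2 arrays a group, the smallest two-sided p of an exact permutation test is 0.333. Separate pools are the replicates.

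The members, gene lists and tests were chosen with earlier results of these data known. Named genes were all members, pathway genes past the threshold and the 5 genes nearest to St6gal1. B4galt5, B4galt6, Cd22, St6gal2, Neu1 and the markers were named after their values were seen. The fit was tested on simulated data. Alternatives were other normalizations, pseudocounts and filters, no set term, no trend, each array left out, single sets and gene means.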

Additional observations from a re-analysis of the deposited data

Results flagged for a closer look

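In 3 member probe sets the 2 sets went opposite ways, and the difference between sets was not tested, since it is the fit's only residual. St3gal5 1449198_a_at had a log2 ratio of -0.20 in set 1 and 0.33 in set 2. St3gal1 1441216_at had 0.29 in set 1 and -0.47 in set 2, and St6gal1 1420927_at had 0.016 and -0.19, both from signals at or near the unspecific level.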

How the results depend on the processing

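For St3gal5 1460241_a_at the log2 ratio stayed above 0 in every setting run, and the call held under quantile normalization, cyclic loess, pseudocounts 1 and 200 and both other filters. It was lost without the set term (1.03), without the intensity trend (1.03) and in the mean over the gene's probe sets (0.54). With 1 array left out, fitted without the set term, it ranged from 0.69 to 1.36 and was not called. As the paired analysis, the fit with the set as block called 1 member and 1645 probe sets. Without the block limma called 0 members (1 at an unadjusted p under 0.05) and 0 probe sets (1280), and without the trend 0 members (4) and 0 probe sets (3486). With 1 array left out 0 members and 4 to 27 probe sets were called. For the set comparison 1 member was called, 2 under quantile normalization or pseudocount 200, and 0 without the trend. At least 1.5-fold changes the same way in both sets were seen for 1 member, at least 2-fold for 0 and at least 1.2-fold for 5. Set 1 alone and set 2 alone, alternatives chosen after seeing the data, each gave 2 members changed at least 1.5-fold. The shares of all tested probe sets under the 2-fold, 1.2-fold and single-set rules were not counted. These member counts are therefore not read as a result about the members. For St6gal1 1420928_at the ratio was 0.00 in set 1 and 0.38 in set 2, and ranged from -0.13 to 0.51 with 1 array left out, where the sign turned without null replicate 2. For St3gal5 1449198_a_at the range was -0.072 to 0.20, with the sign turned without null replicate 2 (-0.066) and without wild-type replicate 2 (-0.072). The cause of these changes was not tested. Dim signal limits 8 of the 17 members, and the number of arrays limits all of them.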
